A study of Homo sapiens with 9 samples.

Results

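The genes described here encode the subunits of the nuclear RNA polymerases I, II and III. They were found as the rows of the count table whose Ensembl identifier maps to a protein-coding symbol that begins with POLR1, POLR2 or POLR3 followed by a letter. The rule found 34 of the 24542 genes and loci in the table, and these carry 33 symbols because POLR2J3 has 2 identifiers. All 34 passed the filter on low counts that left 15558 genes for testing. By textbook assignment 6 belong to Pol I only, 2 to Pol I and III, 5 to all 3 enzymes, 11 to Pol II only and 10 to Pol III only.

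The libraries come from A2780, a human ovarian carcinoma line labelled wild type, grown for 96 h with a drug or with solvent. The groups were 5.5 µM Pt-ttpy, 0.6 µM cisplatin (written Cispt in the labels) and 0.5% DMSO, labelled untreated, with 3 libraries each labelled as biological replicates. Cisplatin, a clinical platinum drug, forms crosslinks on DNA. Pt-ttpy, also a platinum complex, is presented in the series title as a G-quadruplex binder, G-quadruplexes being folded structures of guanine-rich nucleic acid. Each drug was given at its IC80, so the molar doses differ, and the labels do not say whether the drug groups also held DMSO. A single line was used, and nothing in the labels says whether replicates were separate cultures, so p-values measure the spread between these samples, which may be technical.

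Each nuclear polymerase makes its own class of RNA: Pol I the precursor of the large ribosomal RNAs, Pol II the messenger RNAs and many small nuclear RNAs, and Pol III the transfer RNAs, the small ribosomal RNA of the large subunit and other short RNAs. Each is built on a pair of large catalytic subunits, around which a set of small subunits is arranged. A few of the small subunits are common to all of them, Pol I and Pol III share a further pair, and the rest are particular to 1 enzyme. Platinum adducts on the transcribed strand are known to stall Pol II, and Pol I is known to be sensitive to DNA-damaging drugs and to ligands of G-quadruplexes. The comparisons with DMSO ask which genes respond to each drug, and the comparison of the drugs asks what separates Pt-ttpy from cisplatin, the stated aim being to find the genes that Pt-ttpy targets.

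Libraries held 31.3 to 40.8 M counts, and the subunit genes took 0.216%, 0.220% and 0.219% of them with Pt-ttpy, 0.223%, 0.207% and 0.226% with cisplatin, and 0.246%, 0.262% and 0.249% with DMSO. DMSO 2 and cisplatin 2 stood apart from the other 7 libraries on the second principal component, which carried 15.9% of the variance. In these 2 libraries a gene's deviation from its mean over all libraries rose with the GC content of its transcript (Spearman rho 0.41 in cisplatin 2 and 0.51 in DMSO 2), against −0.34 to −0.16 in the others. The median deviation of the 34 genes was −0.27 on the log2 scale in cisplatin 2 and 0.39 in DMSO 2, against 0.15 in each of the other DMSO libraries, so results are also given without both. Of the epithelial markers of ovarian carcinoma, 8 genes summed to 0.958 to 1.46 CPM (counts scaled to a common library size) with Pt-ttpy, 1.93 to 4.28 with cisplatin and 0.0735 to 0.724 with DMSO, with PAX8 at 0 in all Pt-ttpy and DMSO libraries and MUC16 at 0 in 8 of 9 libraries, so the labelled cell type was not borne out by its epithelial markers. All 7 fibroblast or mesenchymal markers were detected, with COL3A1 and DCN the highest, and they summed to 1781 to 1874 CPM with Pt-ttpy, 1690 to 2080 with cisplatin and 999.8 to 1131 with DMSO. COL3A1, DCN, LUM and PDGFRA were above every DMSO library in all 6 treated libraries, COL1A1 overlapped with DMSO, and THY1 was below every DMSO library with Pt-ttpy. The part of this list in the results below was not tested. Leukocyte, endothelial and erythroid lists stayed under 0.8 CPM in every library.

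Promoter windows are printed for 2 genes whose values the results turn on: POLR2E, lower with both drugs, and POLR3GL, higher with cisplatin. They are taken from RefSeq (GRCh38.p14), run from 250 bases before to 50 after the start of transcription and are written 5′ to 3′ on the gene's strand. They were searched for a G-quadruplex motif (4 runs of GGG with 1 to 7 bases between them, either strand) and for the GC box GGGCGG (either strand), and capitals mark the matches. The POLR2E window lies at chr19:1095326-1095625 on the minus strand and the POLR3GL window at chr1:145964440-145964739 on the plus strand.
POLR2E: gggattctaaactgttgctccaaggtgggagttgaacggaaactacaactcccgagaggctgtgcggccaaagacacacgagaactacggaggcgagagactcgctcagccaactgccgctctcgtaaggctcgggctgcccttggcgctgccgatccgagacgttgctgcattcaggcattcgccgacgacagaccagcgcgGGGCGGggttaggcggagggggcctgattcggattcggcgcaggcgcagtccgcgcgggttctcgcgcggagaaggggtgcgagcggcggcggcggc
POLR3GL: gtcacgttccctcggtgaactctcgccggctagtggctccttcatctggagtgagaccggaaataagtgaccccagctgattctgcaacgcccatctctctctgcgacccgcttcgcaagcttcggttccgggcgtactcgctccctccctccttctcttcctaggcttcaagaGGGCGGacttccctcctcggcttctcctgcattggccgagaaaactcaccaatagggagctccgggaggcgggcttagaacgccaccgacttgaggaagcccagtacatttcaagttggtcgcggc
The POLR2E and POLR3GL windows hold a GC box each and no G-quadruplex match. Promoters were at hand for 24 of the 33 symbols, in 30 windows, and the G-quadruplex motif was present in 5 of the 24 (20.8%), against 41.9% of 10698 tested genes with a promoter. The GC box was present in 66.7% of the 24, against 77.1% of tested genes. A match is a description of these letters and not a site.

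After Pt-ttpy, 7 of 34 subunit genes were lower than with DMSO and 0 were higher at an adjusted p under 0.05, a share of 20.6% lower. Of all 15558 tested genes, 6.45% were called lower and 5.59% higher. The median change of the 34 was −0.30 on the log2 scale, against 0.03 over all tested genes, and 28 of 34 fitted changes were negative (82.4%, against 46.9% of all). All Pt-ttpy values lay below all DMSO values for 21 of the 34 genes (20.6% of all tested genes), and above them for 1 gene, POLR3GL (20.3% of all tested genes). The count depended on single libraries, and the share called of all genes moved with it. It was 0 without any 1 of the 3 Pt-ttpy libraries (1.16% to 1.87% of all genes called), 3 without DMSO 2 (8.13%), 4 without DMSO 3 (7.23%) and 18 (17 lower) without cisplatin 2 (19.1%), against 12% of all genes with all 9 libraries, so each of the 7 calls was lost with 1 Pt-ttpy library fewer. In bulk RNA fewer cells of a type and less RNA per cell cannot be told apart, and CPM gives shares of a library, not amounts per cell.

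After cisplatin, 10 of 34 were lower (29.4%) and 1 was higher, against 9.78% lower and 10.7% higher among all tested genes. The median change was −0.30, against 0.01 over all tested genes, and 30 of 34 fitted changes were negative. All cisplatin values lay below all DMSO values for 20 of the 34 genes (19.4% of all tested genes) and above them for 1, again POLR3GL (18.6% of all tested genes). The count was 7 without DMSO 3 (12.8% of all genes called, against 20.5% with all libraries) and 7 without any 1 Pt-ttpy library (14.6% to 15.4%), which enter through the shared estimate of the spread, and 8 to 10 without each of the others. Both comparisons use the same 3 DMSO libraries, so their values are set side by side and are not independent. Calls grew more frequent with expression in general: in the top quintile of mean CPM, 13.2% of tested genes were lower with Pt-ttpy and 20.9% with cisplatin, and 10 of the 34 subunit genes were in it. Median changes of tested genes also fell with level, from 0.37 in the lowest quintile to −0.10 in the top one with Pt-ttpy. With cisplatin they went from 0.51 to −0.16. The 10 subunit genes of the top quintile had a median change of −0.3 with Pt-ttpy and −0.35 with cisplatin.

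No subunit gene was called between Pt-ttpy and cisplatin. Of 34 genes, 0 were called between the drugs by edgeR, 0 by DESeq2 and 0 by limma-voom, while edgeR called 0.514% of all tested genes. At an unadjusted p under 0.05 in edgeR the count was 0 of 34, against 1254 of all 15558 tested genes. The fitted differences ran from −0.45 to 0.36 with a median of −0.01. All Pt-ttpy values lay above all cisplatin values for 2 of the 34 genes, POLR2B and POLR2K (10.5% of all tested genes), and below them for 1, the POLR2J3 row ENSG00000285437 (10.1% of all tested genes). All 34 intervals (95%) of the difference included 0, and 26 of them lay within 0.5 log2 units on either side. The widest reached −1.37 and 1.62, in copies of POLR2J with few counts, so differences of that size lay inside the intervals there. The doses of the drugs differ in µM and were matched by toxicity.

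**Figure D1:**
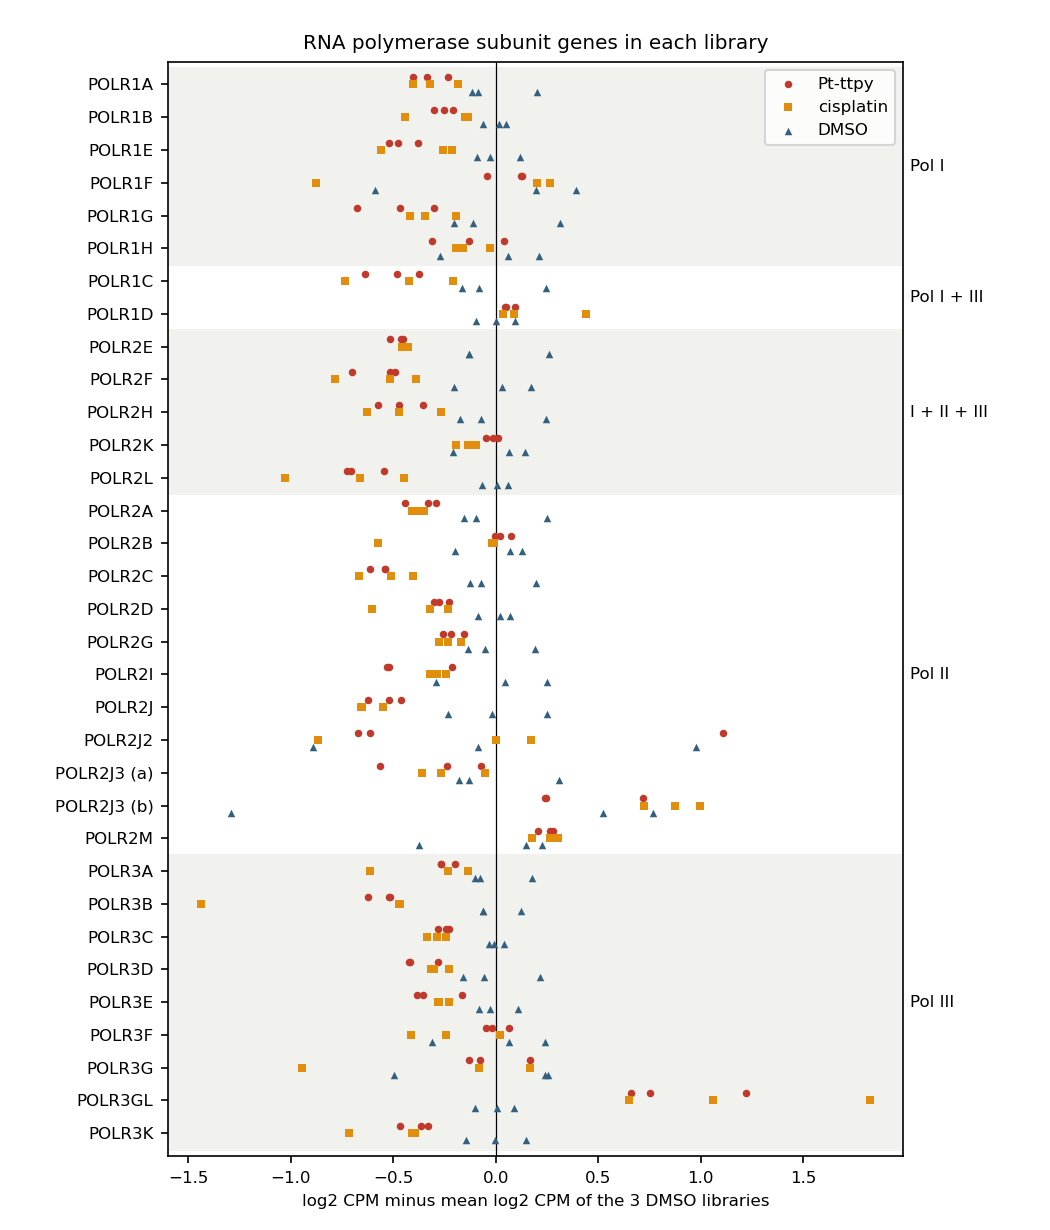
Level of 33 of the 34 subunit genes in each of the 9 libraries, as log2 CPM minus the mean log2 CPM of the 3 DMSO libraries, grouped by the polymerase the subunit belongs to; circles are Pt-ttpy, squares cisplatin and triangles DMSO libraries. Most circles and squares lie left of the triangles, POLR3GL lies right of them in all 6 treated libraries, and POLR2J3 (a) and (b) are the 2 identifiers of that symbol, (a) being ENSG00000168255.

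Of the subunits common to Pol I, II and III, 4 of 5 were lower with each drug, namely POLR2E, POLR2F, POLR2H and POLR2L, and POLR2K was not called. Of all tested genes, 6.45% were lower with Pt-ttpy and 9.78% with cisplatin. The summed level of the 5 was 360 ± 9.81 CPM with Pt-ttpy, 362 ± 20.8 with cisplatin and 501 ± 62.1 with DMSO (SD, n = 3 each). The median of the 5 changes was −0.49 with Pt-ttpy and −0.46 with cisplatin. Differences between the polymerase classes were not tested, since members are not replicates of a condition.

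POLR2L encodes a small zinc-binding subunit of the assembly platform of all 3 enzymes. It measured 35.3, 39.5 and 34.9 CPM in the Pt-ttpy libraries, 42.2, 28.2 and 36.4 in the cisplatin libraries, and 55.1, 60.1 and 57.8 in the DMSO libraries. No treated library reached the lowest DMSO library. Its change was −0.66 (SE 0.14, adjusted p = 0.0168) with Pt-ttpy and −0.70 (SE 0.14, adjusted p = 0.00743) with cisplatin, the largest fall among the common subunits. It lies on chromosome 11 (837356 to 842545, GRCh38), and 22.5% of its exon positions are shared with CD151 on the opposite strand. CD151 changed by −0.68 with each drug, also called. Strandedness of the counting is not given in the sources used here, so reads in the shared positions cannot be told apart.

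POLR2E encodes the subunit at the downstream jaw that grips incoming DNA. It stood at 181, 188 and 189 CPM with Pt-ttpy, 190, 189 and 192 with cisplatin, and 236, 311 and 237 with DMSO. The 6 treated libraries fell within a narrow band below all DMSO libraries, and DMSO 2 was the highest. The change was −0.49 (SE 0.11, adjusted p = 0.0201) with Pt-ttpy and −0.46 (SE 0.11, adjusted p = 0.0159) with cisplatin. Without DMSO 2 and cisplatin 2 it was −0.34 with Pt-ttpy and −0.30 with cisplatin, called in both. In a fit of only the 6 cisplatin and DMSO libraries the call with cisplatin was lost.

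POLR2F, a small subunit beside the clamp that is needed for stable assembly, had 30.7, 30.2 and 26.6 CPM with Pt-ttpy, 33.0, 25.1 and 30.2 with cisplatin, and 37.6, 48.7 and 44.2 with DMSO. POLR2H, a subunit with a fold known from proteins that bind single-stranded nucleic acid, had 76.2, 82.4 and 70.9 CPM with Pt-ttpy, 87.6, 68.1 and 76.1 with cisplatin, and 93.5, 125 and 100 with DMSO. Treated and DMSO values did not overlap for either gene. POLR2F changed by −0.58 (adjusted p = 0.0243) with Pt-ttpy and −0.56 (adjusted p = 0.0171) with cisplatin, and POLR2H by −0.47 (adjusted p = 0.0401) and −0.46 (adjusted p = 0.0322). With Pt-ttpy the call of POLR2F was kept in 4 and that of POLR2H in 3 of 9 fits that each left out 1 library. With cisplatin the call of POLR2F was lost only without DMSO 3 (adjusted p = 0.051), and that of POLR2H in 7 of the 9 fits. POLR2K, the zinc-binding partner of POLR2L in the platform, had 32.4, 31.1 and 31.8 CPM with Pt-ttpy, 29.2, 30.1 and 28.0 with cisplatin, and 35.5, 27.8 and 33.6 with DMSO. Its groups overlapped, and its change of −0.02 with Pt-ttpy (95% interval −0.28 to 0.24) and −0.15 with cisplatin (−0.41 to 0.11) did not pass the test.

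POLR1C and POLR1D form the pair shared by Pol I and Pol III, on which assembly of both begins. POLR1C had 30.5, 25.4 and 28.4 CPM with Pt-ttpy, 29.5, 23.8 and 34.3 with cisplatin, and 37.4, 46.8 and 35.3 with DMSO, and POLR1D had 124, 120 and 120, then 119, 157 and 123.3, then 108, 123.4 and 116 in the same order of groups. Neither was called: POLR1C changed by −0.50 (adjusted p = 0.058) with Pt-ttpy and −0.45 (adjusted p = 0.0621) with cisplatin, and POLR1D by 0.06 and 0.20. POLR1C lay below DMSO in every treated library, while the groups of POLR1D overlapped.

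Among the 6 subunits particular to Pol I, 1 was lower with Pt-ttpy, POLR1E (6.45% of all tested genes), and 0 with cisplatin (9.78%). Their median change was −0.29 with Pt-ttpy and −0.27 with cisplatin (−0.14 without DMSO 2 and cisplatin 2), and their summed level was 436 ± 10.8 CPM with Pt-ttpy, 444.5 ± 49.8 with cisplatin and 537 ± 23.1 with DMSO (SD, n = 3 each). POLR1E and POLR1G form a heterodimer that supports initiation and elongation by Pol I. POLR1E had 50.03, 51.5 and 55.1 CPM with Pt-ttpy, 60.0, 48.7 and 61.9 with cisplatin, and 70.4, 77.9 and 67.2 with DMSO, with every treated library below every DMSO library. It fell by 0.46 on the log2 scale (SE 0.12, adjusted p = 0.0282) with Pt-ttpy, and its change of −0.34 (SE 0.12, adjusted p = 0.0604) with cisplatin missed the threshold. Between the drugs POLR1E differed by −0.12 (95% interval −0.38 to 0.13, adjusted p = 0.84), so no difference between them was shown.

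The catalytic subunits of Pol I were lower in every treated library than in any DMSO library, and neither passed the test. POLR1A, the largest subunit, had 179, 171 and 192 CPM with Pt-ttpy, 199, 170 and 181 with cisplatin, and 209, 260 and 213 with DMSO, changes of −0.33 (adjusted p = 0.0713) and −0.31 (adjusted p = 0.0673). POLR1B, which forms the active centre with POLR1A, had 124, 116 and 120 CPM with Pt-ttpy, 129, 106 and 131 with cisplatin, and 149, 137 and 145 with DMSO, changes of −0.26 (adjusted p = 0.124) and −0.24 (adjusted p = 0.1246). POLR1G changed by −0.49 (adjusted p = 0.0601) with Pt-ttpy and −0.33 with cisplatin, but 43.5% of its exon positions are shared with ERCC1 on the opposite strand, a repair gene that was higher with cisplatin (0.42, adjusted p = 0.0407). POLR1F, the stalk subunit through which RRN3 docks, changed by 0.01 and −0.11, and POLR1H, the subunit for cleavage of RNA, by −0.14 with each drug.

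Pol II had 11 particular rows, of which 2 were lower with Pt-ttpy, POLR2C and POLR2J, and 4 with cisplatin, POLR2A, POLR2C, POLR2D and POLR2J. Of all tested genes, 6.45% were lower with Pt-ttpy and 9.78% with cisplatin. The median change of the 11 was −0.27 with Pt-ttpy and −0.30 with cisplatin. That with cisplatin was −0.16 without DMSO 2 and −0.11 without DMSO 2 and cisplatin 2, and that with Pt-ttpy was −0.17 with a correction for GC content. The summed level was 765 ± 14.2 CPM with Pt-ttpy, 722 ± 76.1 with cisplatin and 874 ± 19.6 with DMSO (SD, n = 3 each). POLR2A, the largest subunit, whose repeated tail is phosphorylated through the transcription cycle, had 107, 115 and 118 CPM with Pt-ttpy, 114, 109 and 110 with cisplatin, and 130, 173 and 136 with DMSO. All 6 treated libraries lay below DMSO, and DMSO 2 was the highest. The fall with cisplatin was 0.39 on the log2 scale (SE 0.12, adjusted p = 0.0328), and the change of −0.36 (SE 0.12, adjusted p = 0.0604) with Pt-ttpy missed the threshold. Without DMSO 2 and cisplatin 2 the changes were −0.22 with Pt-ttpy (adjusted p = 0.00521) and −0.24 with cisplatin (adjusted p = 0.0072), and the call with cisplatin was lost in 6 of 9 fits that each left out 1 library. POLR2B, which forms the active centre with POLR2A, had 241, 255 and 245 CPM with Pt-ttpy, 240, 163 and 239 with cisplatin, and 265, 211 and 254 with DMSO. The low values were those of cisplatin 2 and DMSO 2, the groups overlapped, and the changes were 0.02 with Pt-ttpy (95% interval −0.29 to 0.34) and −0.18 with cisplatin (−0.50 to 0.13).

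POLR2C and POLR2J pair with each other as the platform on which Pol II assembles. POLR2C had 67.3, 70.8 and 70.9 CPM with Pt-ttpy, 78.0, 64.9 and 72.2 with cisplatin, and 94.5, 118 and 97.9 with DMSO. It fell by 0.57 on the log2 scale (SE 0.12, adjusted p = 0.0141) with Pt-ttpy and by 0.53 (SE 0.12, adjusted p = 0.00995) with cisplatin, with no overlap between treated and DMSO libraries. POLR2J had 22.8, 23.8 and 21.2 CPM with Pt-ttpy, 22.4, 20.9 and 20.8 with cisplatin, and 27.9, 39.0 and 32.4 with DMSO, and fell by 0.55 (adjusted p = 0.026) and by 0.63 (adjusted p = 0.00992). Reads of POLR2J are uncertain, because POLR2J2 and POLR2J3 on chromosome 7 are near-identical copies and because 3.76% of its exon positions are shared with LRWD1, which was also lower with both drugs (−0.86 with Pt-ttpy, −0.89 with cisplatin). The copies themselves had few counts and wide intervals, with POLR2J2 between 0.816 and 3.26 CPM over all libraries, and none of the 3 copy rows passed the test.

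POLR2D and POLR2G form the stalk of Pol II. POLR2D had 147, 152 and 145 CPM with Pt-ttpy, 143, 117 and 152 with cisplatin, and 168, 187 and 181 with DMSO, all treated libraries below DMSO. It was lower with cisplatin (−0.38, adjusted p = 0.0301), a call lost in 6 of the 9 fits without 1 library, and measured −0.27 (adjusted p = 0.118) with Pt-ttpy. POLR2G changed by −0.22 and −0.23, and POLR2I, which takes part in proofreading, by −0.43 and −0.30, neither called. Reads of POLR2I are uncertain, because 61.9% of its exon positions are shared with AD001527.2 and 32.9% with TBCB, both on the opposite strand. POLR2M, which binds Pol II and makes it depend on Mediator rather than being a core subunit, changed by 0.23 with each drug. It was not called, with 51.2 CPM in DMSO 2 against 73.6 and 77.5 in the other DMSO libraries. GCOM1 on the same strand shares 21.1% of the exon positions of POLR2M.

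**Figure D2:**
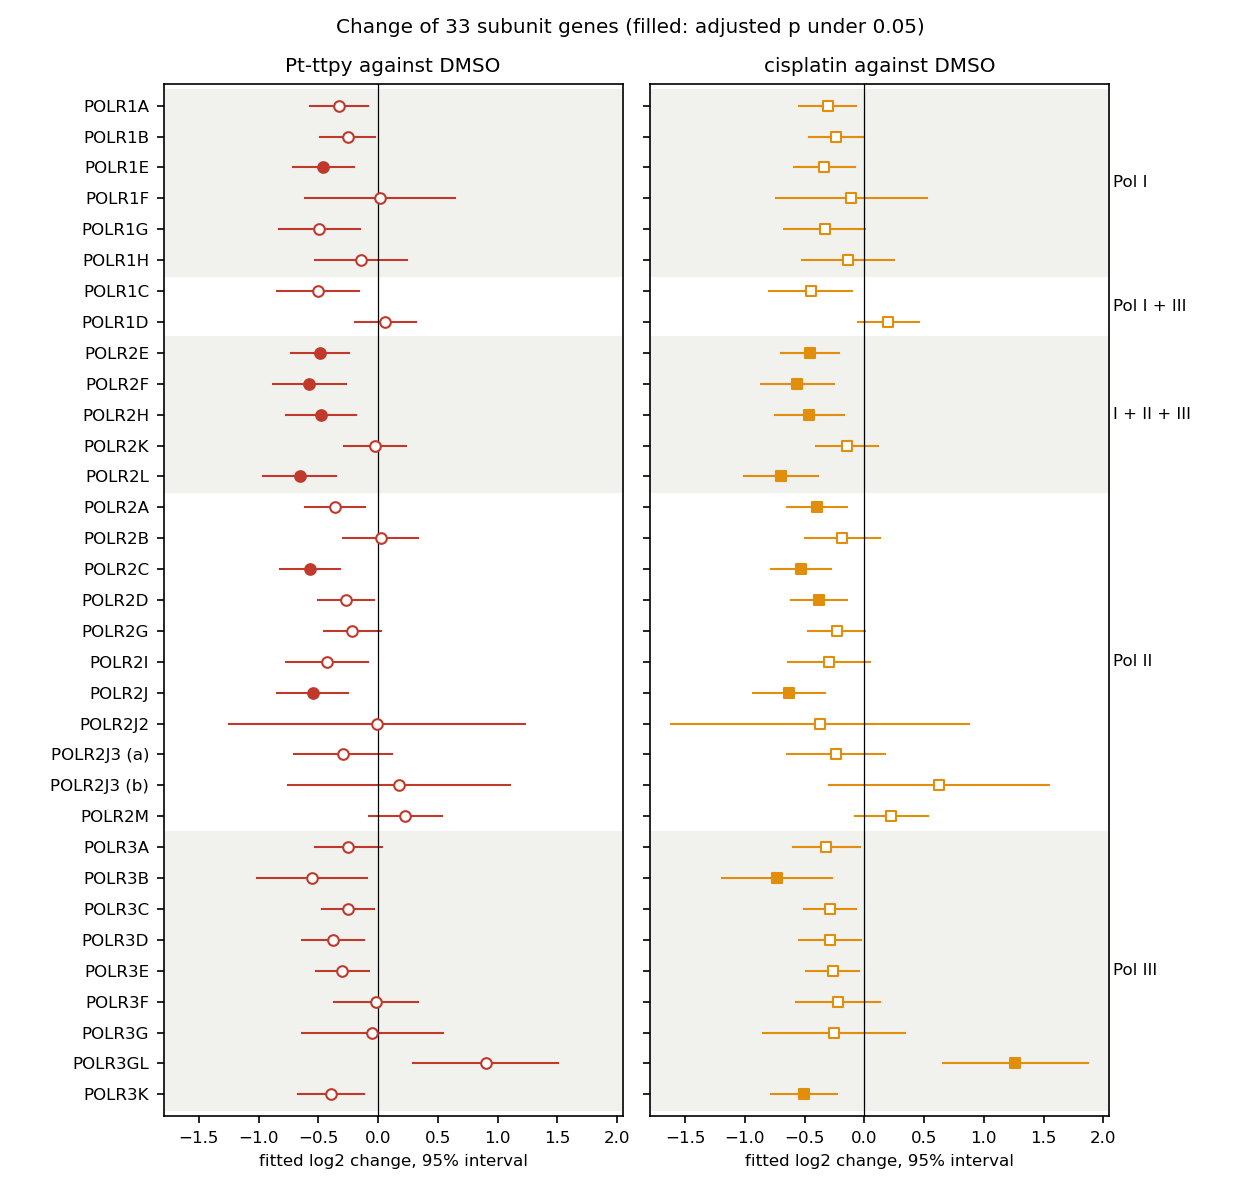
Fitted log2 change of 33 of the 34 subunit genes, each with its 95% interval, Pt-ttpy against DMSO on the left and cisplatin against DMSO on the right, filled where the adjusted p is under 0.05. The 7 filled symbols of Pt-ttpy all lie below 0, and of the 11 filled symbols of cisplatin 10 lie below 0 and POLR3GL above it.

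Among the 10 subunits particular to Pol III, 0 were called with Pt-ttpy, while 2 were lower and 1 higher with cisplatin. Of all tested genes, 6.45% were lower and 5.59% higher with Pt-ttpy, and 9.78% were lower and 10.7% higher with cisplatin. In a class of 10 genes the 0 called with Pt-ttpy and the 1 higher with cisplatin are near these shares. Their median change was −0.28 with Pt-ttpy and −0.29 with cisplatin, and their summed level was 449 ± 3.60 CPM with Pt-ttpy, 441 ± 42.3 with cisplatin and 551 ± 39.4 with DMSO (SD, n = 3 each). With Pt-ttpy 7 of the 10 had an unadjusted p under 0.05, 6 of them lower and POLR3GL higher. Of all 15558 tested genes, 4637 had an unadjusted p under 0.05 in the same edgeR comparison. The catalytic subunits POLR3A and POLR3B were lower in every treated library than in any DMSO library. POLR3A had 128, 128 and 134 CPM with Pt-ttpy, 131, 100 and 140 with cisplatin, and 143, 174 and 146 with DMSO, changes of −0.25 (adjusted p = 0.219) and −0.32 (adjusted p = 0.0981). POLR3B had 22.03, 20.5 and 21.96 CPM with Pt-ttpy, 22.7, 11.6 and 22.7 with cisplatin, and 34.3, 30.2 and 30.2 with DMSO. Cisplatin 2 was far below the other cisplatin libraries. POLR3B fell by 0.73 (SE 0.21, adjusted p = 0.0309) with cisplatin and measured −0.55 (SE 0.21, adjusted p = 0.102) with Pt-ttpy. Without DMSO 2 and cisplatin 2, its change with cisplatin was −0.50 (adjusted p = 0.0014), and in 6 of 9 fits without 1 library the call was lost.

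POLR3K, the subunit for RNA cleavage and termination by Pol III, had 33.9, 37.3 and 36.4 CPM with Pt-ttpy, 35.7, 28.5 and 35.3 with cisplatin, and 42.4, 52.1 and 46.9 with DMSO. It fell by 0.51 (SE 0.13, adjusted p = 0.0174) with cisplatin, and its change of −0.39 (SE 0.13, adjusted p = 0.0626) with Pt-ttpy missed the threshold. In a fit of only the 6 cisplatin and DMSO libraries the call with cisplatin was lost. Treated libraries lay below DMSO throughout. Of its exon positions 8.10% are shared with SNRNP25 on the opposite strand, which was lower with both drugs (−0.69 with Pt-ttpy, −0.59 with cisplatin). The initiation subunit POLR3C changed by −0.25 and −0.29 and the paired subunits POLR3D and POLR3E by −0.38 and −0.30 with Pt-ttpy and −0.29 and −0.26 with cisplatin. None of these 3 was called, and each lay below DMSO in all treated libraries. POLR3F, which joins POLR3C in the initiation subcomplex, changed by −0.02 and −0.22 with overlapping groups.

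POLR3GL was the only subunit gene above all DMSO libraries in every treated library. POLR3GL and POLR3G encode alternative forms of 1 subunit of the initiation subcomplex, POLR3G being known for stem cells and tumour cells and POLR3GL for differentiated tissues. POLR3GL measured 6.98, 10.3 and 7.44 CPM with Pt-ttpy, 9.21, 15.6 and 6.94 with cisplatin, and 4.70, 4.44 and 4.12 with DMSO. The DMSO libraries were close together, while the treated ones spread, with cisplatin 2 the highest. The rise was 1.26 on the log2 scale (SE 0.28, adjusted p = 0.0108) with cisplatin, a fold of 2.40, and was called in all 9 fits without 1 library. With Pt-ttpy the change of 0.90 (SE 0.28, adjusted p = 0.0557), a fold of 1.87, missed the threshold. Without DMSO 2 and cisplatin 2 it was 0.91 with Pt-ttpy (adjusted p = 0.0027) and 0.88 with cisplatin (adjusted p = 0.00689), and the drugs then differed by 0.03. POLR3GL lies on chromosome 1 (145964702 to 145978848, GRCh38, plus strand). Another gene on the same strand, AC243547.3, shares 21.2% of its exon positions and was too low to be tested.

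POLR3G had 14, 11.8 and 11.4 CPM with Pt-ttpy, 14.01, 6.47 and 11.8 with cisplatin, and 14.7, 8.85 and 14.9 with DMSO. Its groups overlapped, both low values were those of DMSO 2 and cisplatin 2, and its changes of −0.05 with Pt-ttpy (95% interval −0.64 to 0.54) and −0.26 with cisplatin (−0.85 to 0.34) did not pass the test. Per kilobase of exon, POLR3GL made up 52.7%, 66.1% and 59.4% of the pair with Pt-ttpy, 59.5%, 84.4% and 56.8% with cisplatin, and 41.6%, 52.8% and 38.2% with DMSO. The Pt-ttpy and DMSO ranges met at DMSO 2, whose share of 52.8% was just above the lowest Pt-ttpy share, and all cisplatin shares lay above all DMSO shares. DMSO 2 and cisplatin 2, with the lowest POLR3G, had the highest share of their groups. The share itself was given no test.

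**Figure D3:**
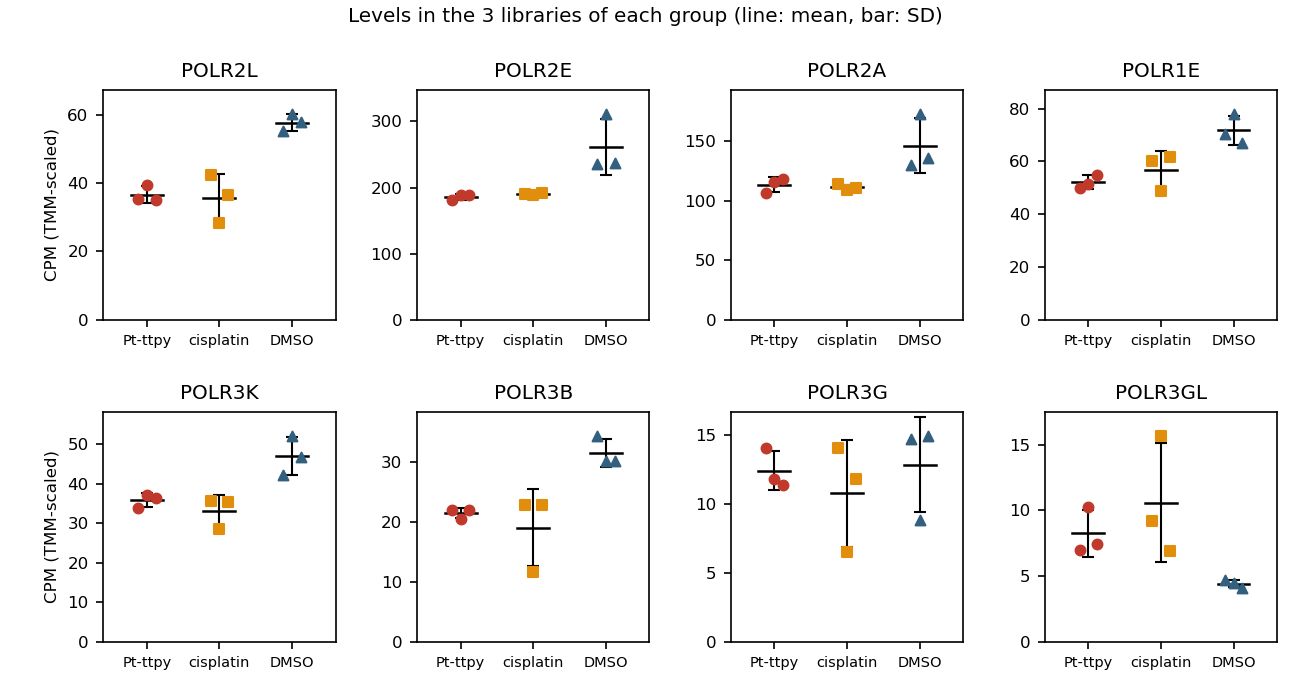
TMM-scaled CPM of 8 subunit genes in each library, in the order Pt-ttpy, cisplatin and DMSO, with the mean as a line and the SD as a bar (n = 3 each). Treated libraries lie below DMSO for POLR2L, POLR2E, POLR2A, POLR1E, POLR3K and POLR3B, the groups overlap for POLR3G, and treated libraries lie above DMSO for POLR3GL.

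Per kilobase of exon, the highest levels in DMSO libraries were those of the common subunits POLR2E (53.7 CPM per kb) and POLR2L (50.5) and the Pol II subunit POLR2B (41.2). With Pt-ttpy POLR2B came first (41.9 CPM per kb), with POLR2E at 38.3 and POLR2L at 32.02, and with cisplatin the order was POLR2E (39.1), POLR2B (36.3) and POLR2L (31.2). The catalytic subunits of Pol I and Pol III were at 13.4 (POLR1A), 19.0 (POLR1B), 14.5 (POLR3A) and 4.42 (POLR3B) CPM per kb with Pt-ttpy, and at 16.8, 22.7, 17.3 and 6.49 with DMSO. The lowest levels belonged to the copies POLR2J2 and POLR2J3 (ENSG00000285437). These levels use the union of annotated exons, which is longer than the transcripts a cell makes, so the order of neighbouring genes is approximate.

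The changes moved with base composition among the 34 genes. Across them, Spearman's rho between the GC content of the longest transcript and the change was −0.61 with Pt-ttpy and −0.52 with cisplatin, while over 13383 tested genes it was −0.21 and 0.02. The points share their libraries, so these values are a description. The AT-rich members POLR3G, POLR2K and POLR1F had changes near 0 with Pt-ttpy, and the called genes POLR2L, POLR2E and POLR2H were among the richest in GC. The called genes POLR1E (51.1% GC) and POLR2C (50.8%) lay near the median of the 34 (49.5%), and POLR2I, at 60.9%, was not called. DMSO 2 had the strongest GC trend and the highest member levels, and its part in the relation was not tested. With a correction of each library for GC content, chosen after seeing the data, 14 subunit genes were lower and 1 higher with Pt-ttpy (11.1% of all tested genes lower in that fit), and 12 were lower and 2 higher with cisplatin (15.6% of all tested genes lower), including all those called without it. The median change of the 34 was then −0.26 with Pt-ttpy and −0.24 with cisplatin, and that of POLR2E −0.38 and −0.43. Without DMSO 2 and cisplatin 2, 21 were lower and 1 higher with Pt-ttpy (17.4% of all tested genes were lower in that fit), and 14 were lower and 1 higher with cisplatin (16.4% of all tested genes lower).

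**Figure D4:**
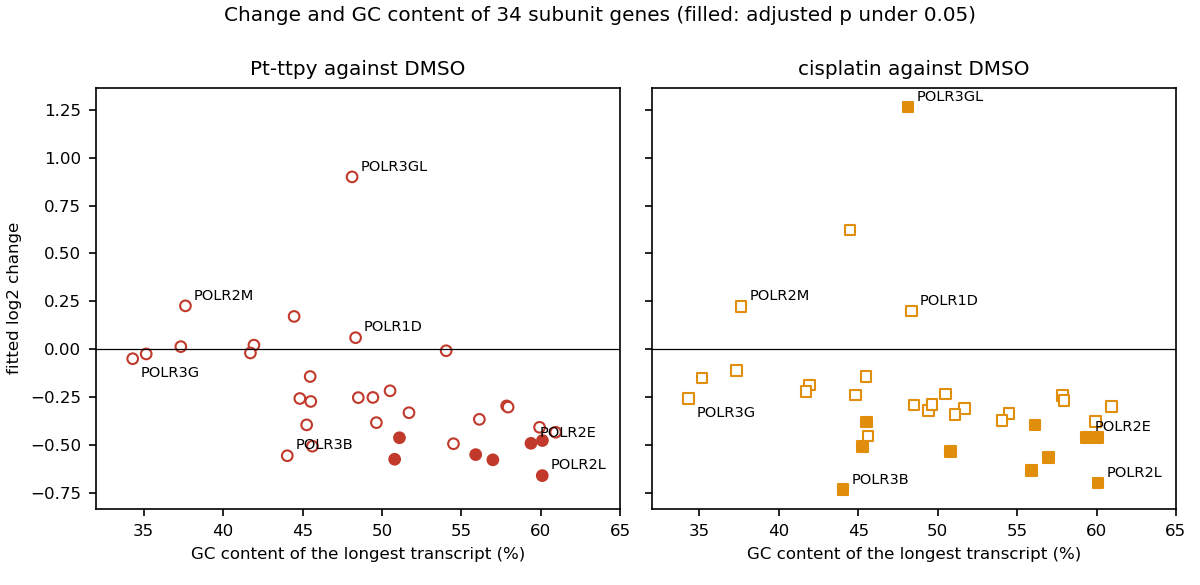
Fitted log2 change of the 34 subunit genes against the GC content of the longest annotated transcript in percent, Pt-ttpy against DMSO on the left and cisplatin against DMSO on the right, filled where the adjusted p is under 0.05. Points at higher GC content lie lower in both panels (rho −0.61 and −0.52), with POLR3GL apart at the top.

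Genes that work with the polymerases were read from lists written from general knowledge. Of 14 Pol I factors, 0 rose and 2 fell with Pt-ttpy and 5 fell with cisplatin, where 6.45% and 9.78% of all tested genes were lower. TCOF1, which links ribosomal DNA transcription to pre-ribosome assembly, averaged 251.5 ± 14.1 CPM with Pt-ttpy, 254 ± 35.1 with cisplatin and 359 ± 48.1 with DMSO (SD, n = 3 each), changes of −0.52 (adjusted p = 0.0238) and −0.50 (adjusted p = 0.0172). CAVIN1, a release factor also known for caveolae, fell with Pt-ttpy (−0.44, adjusted p = 0.0385). With cisplatin the nucleolar proteins NOLC1 (−0.51) and NCL (−0.45) and the Pol I activator UBTF (−0.33, adjusted p = 0.0317) fell as well. UBTF measured −0.28 (adjusted p = 0.0765) with Pt-ttpy, and RRN3, the factor that brings Pol I to its promoter, was not called with either drug.

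Of 18 Pol III factors, 3 fell with Pt-ttpy (6.45% of all tested genes) and 2 with cisplatin (9.78% of all tested genes, a share near that of the list), and 0 rose. GTF3A, the factor for the small ribosomal RNA genes of Pol III, averaged 110 ± 6.55 CPM with Pt-ttpy, 116 ± 10.1 with cisplatin and 163 ± 5.24 with DMSO (SD, n = 3 each), and fell by 0.56 on the log2 scale (adjusted p = 0.00922) and by 0.49 (adjusted p = 0.00743). MAF1, the repressor of Pol III, fell too, by 0.67 (adjusted p = 0.0141) with Pt-ttpy and by 0.49 (adjusted p = 0.026) with cisplatin. SNAPC4, of the complex at small nuclear RNA promoters, fell with Pt-ttpy (−0.52, adjusted p = 0.0484), and BRF1, BRF2 and BDP1, the core initiation factors, were not called. CRCP, a Pol III subunit whose symbol the rule does not match, was looked up after its values could be seen: it fell with cisplatin (−0.37, adjusted p = 0.0487) and measured −0.29 (adjusted p = 0.1253) with Pt-ttpy.

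Of 31 general factors of Pol II, 1 rose and 2 fell with each drug. These are no larger a share than the 6.45% of all tested genes lower with Pt-ttpy and 9.78% with cisplatin, or the 5.59% and 10.7% higher. The members are therefore named for their roles, and their values are no result about the list. GTF2H3, a subunit of the repair and initiation factor TFIIH, rose by 0.51 (adjusted p = 0.0179) with Pt-ttpy and by 0.58 (adjusted p = 0.00639) with cisplatin, while ERCC3, the translocase of the same complex, fell by 0.38 (adjusted p = 0.0481) and by 0.41 (adjusted p = 0.0269). TAF3 fell with Pt-ttpy (−0.51), and TBP, which all 3 polymerases use, fell with cisplatin (−0.41, adjusted p = 0.03) and measured −0.29 (adjusted p = 0.116) with Pt-ttpy. Of 27 pausing and elongation factors, 7 fell with Pt-ttpy and 8 with cisplatin, against the same shares of all tested genes. ELOF1, which binds Pol II and serves transcription-coupled repair, fell by 0.54 (adjusted p = 0.0172) with Pt-ttpy and by 0.58 (adjusted p = 0.0069) with cisplatin. The histone chaperone subunit SSRP1 fell by 0.41 and by 0.49, ELOA by 0.50 and by 0.55, and PAF1 by 0.48 and by 0.47. CDK12, a kinase of the Pol II tail, fell by 0.43 with Pt-ttpy and by 0.49 with cisplatin.

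Assembly and import factors numbered 20, of which 3 fell with Pt-ttpy and 4 with cisplatin (6.45% and 9.78% of all tested genes). PFDN2, a prefoldin subunit, averaged 59.7 ± 5.52 CPM with Pt-ttpy, 62.0 ± 5.11 with cisplatin and 94.2 ± 3.03 with DMSO (SD, n = 3 each), changes of −0.66 (adjusted p = 0.00722) and −0.60 (adjusted p = 0.00447). RUVBL2, of the complex that builds polymerases with HSP90, fell by 0.43 and by 0.47, and HSP90AB1 by 0.39 and by 0.33. GPN1, a GTPase for import of Pol II, fell with cisplatin (−0.33, adjusted p = 0.033). Of 16 genes that handle stalled Pol II, 2 fell with each drug, with cisplatin a share near that of all tested genes, namely VCP, which extracts ubiquitylated proteins (−0.44 and −0.48), and ARMC5, an adaptor for degradation of POLR2A (−0.71 and −0.55), and the transcription-coupled repair genes ERCC6, ERCC8 and UVSSA were not called. POLRMT, the polymerase of mitochondria, measured −0.29 (adjusted p = 0.192) with Pt-ttpy and −0.25 (adjusted p = 0.225) with cisplatin. In each of these lists 0 genes were called between Pt-ttpy and cisplatin, where 0.514% of all tested genes were called. For lists of this size a count of 0 is near that share and is no result about the lists.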

How the data were processed

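The authors deposited 1 table of raw counts per gene for 9 libraries, made from total RNA with an mRNA library kit, per the labels' protocols; no column was left without a sample. The build was GRCh38, per the submitters' processing notes. For aligner, counter and strandedness nothing is given in the sources used here. Of 24542 rows 19974 carry Ensembl identifiers, all in GENCODE 29, and 19883 had a symbol. Tests used edgeR 4.0.16 in R 4.3.3: filterByExpr (minimum count 10), TMM factors, robust quasi-likelihood F tests with 1 mean per group over all 9 libraries, 3 contrasts, and Benjamini-Hochberg adjustment over 15558 genes, called under 0.05. A prior count of 0.125 entered the fitted log2 changes, and CPM values use TMM-scaled library sizes, except those of marker lists, which use library totals. Members, polymerase classes and lists were chosen with earlier results of these data known. Named are every called subunit gene and the large catalytic subunits, and up to 4 called genes per list and contrast; further genes are given briefly by role. Groups come from the labels; no libraries were duplicates. Alternatives were DESeq2 1.42.0, limma-voom (limma 3.58.1), other scalings, filters, thresholds and sets of libraries, a replicate block and a GC correction. The test was tried on simulated data. The values of 1 subunit gene, counted in the totals, and 1 promoter sequence are not reported here. GC content, known for 86.0% of tested genes, and exon overlaps come from GENCODE 29. Exon overlaps touched 22 of the 34 rows. Values here are relative, and counts of reads do not separate molecules from amplified copies.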

Additional observations from a re-analysis of the deposited data

How the results depend on the processing

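The subunit genes called with Pt-ttpy numbered 7 (12% of all genes called), and under other settings 16 with the DESeq2 Wald test (18.3%), 12 with the 6 libraries of the contrast (14.8%), 22 without DMSO 2 and cisplatin 2 (33.2%), 17 at an adjusted p under 0.1 (21.3%) and 15 with the GC correction (22.8%), which was chosen after seeing the data. All 7 were among those called in each of these fits. With upper-quartile factors 6 were called (11% of all genes), POLR2H being lost (adjusted p = 0.0626), and with cisplatin 8. They were 0 to 18 with 1 library left out. With cisplatin 11 were called (20.5% of all genes), 4 with the 6 libraries of the contrast (8.65%) and 18 at an adjusted p under 0.1 (30.2%), and 7 to 10 with 1 library left out. The cisplatin calls lost with the 6 libraries were those of POLR2A, POLR2D, POLR2E, POLR2F, POLR2H, POLR3B and POLR3K. Between the drugs the count was 0 under every setting run. With the labels' replicate number as a block 12 were called with Pt-ttpy (16.3% of all genes) and 11 with cisplatin (23.9%); same-numbered libraries correlated by −0.04 to 0.04 between Pt-ttpy and DMSO and by 0.08 to 0.22 between cisplatin and DMSO. Not every pair was over 0.1, so the numbers were not taken as pairs, although each cisplatin library correlated best with the DMSO library of its own number. Median changes by polymerase kept their sign against DMSO under every setting, ranging from −0.56 to −0.17 with Pt-ttpy and from −0.53 to −0.11 with cisplatin. Among the refits of called genes 310 kept the call, 68 lost it and 0 reversed. Leaving out a Pt-ttpy library leaves 2 in that group. Upper-quartile factors and library totals moved the median of all genes against DMSO by less than 0.1. With 3 libraries a group, intervals of the subunit genes reached a median of 0.295 log2 units to either side, so smaller changes were mostly not detectable.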

Other observations

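POLR3GL lies in a cluster of genes on chromosome 1 whose neighbours were looked up within 100 kb after its rise had been seen. TXNIP, an inhibitor of thioredoxin, lies 13.6 kb beyond its end on the opposite strand. It averaged 22.6 CPM with Pt-ttpy, 29.6 with cisplatin and 5.74 with DMSO (n = 3 each), changes of 1.97 (adjusted p = 0.00284) and 2.36 (adjusted p = 0.000245). ANKRD34A, whose start is 0.12 kb from that of POLR3GL on the opposite strand, measured 0.40 (adjusted p = 0.113) with Pt-ttpy and 0.27 (adjusted p = 0.24) with cisplatin. LIX1L, 6.7 kb away, measured 0.02 and −0.11. ITGA10, an integrin subunit, was higher with cisplatin at a low level (2.48 CPM, against 0.410 with DMSO; log2 2.57, adjusted p = 0.0341) and was not called with Pt-ttpy.

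The letters of the NRF1 motif (GCGCAT joined to GCGC), searched on both strands, were found in 3 of the 24 subunit promoters (12.5%, POLR2F, POLR2H and POLR3B), against 2.6% of 10698 tested genes with a promoter. The ETS core CCGGAAG was found in 37.5% against 21.5%, the E-box CACGTG in 16.7% against 12.5%, CCAAT in 25.0% against 43.1% and TATAAA in 4.2% against 8.4%. These shares were not tested.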
